A study of Mus musculus with 6 samples.

Results

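The mitochondrial respiratory chain and the ATP synthase were followed here in kidney RNA of mice that express the soluble intracellular domain of megalin. The nuclear genes of complexes I to V were taken by symbol (Nduf genes of the a, b, c, s and v series, Sdha to Sdhd, Uqcr genes, Cyc1, Cox4 to Cox8 and Atp5 genes) from probe sets that the platform annotation gives 1 gene. The probe set with the highest mean over the 6 arrays stood for each gene. This gave 82 of the 18193 genes with such a probe set: 35 in complex I, 4 in complex II, 9 in complex III, 17 in complex IV and 17 in complex V. The choice of members used no difference between genotypes.

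Each of the 6 Affymetrix arrays held whole kidney RNA of 1 male mouse aged 10 weeks. The ICD group held 3 mice, which per the series' design text were heterozygous for the megalin intracellular domain, and the control group held 3 wild type littermates. The sources used here do not give the promoter that drives the domain, the cells that make it or the strain. The study asked whether this domain, released in normal tubules when megalin is cleaved, affects the proximal tubule.

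The respiratory chain passes electrons from NADH (complex I) and succinate (complex II) through ubiquinone, complex III and cytochrome c to oxygen at complex IV, and the proton gradient so built drives ATP synthesis in complex V. Proximal tubule and thick ascending limb cells are packed with mitochondria, because salt and solute reabsorption costs ATP. Most subunits are encoded in the nucleus. Several subunits of complex IV also have isoforms that are typical of heart, skeletal muscle, brown fat, lung or testis.

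Values are log2 expression from RMA, and differences are ICD minus wild type on that scale, with a standard error (SE) or 95% interval from limma. The number of arrays limits the precision, and brightness is not compared between probe sets, whose sequences bind differently. Medians of the 6 arrays lay between 6.62 and 6.66. The megalin probe set 1427133_s_at read 12.25, 12.37 and 12.26 on ICD 1 to 3, 13.01 and 12.97 on wild type 1 and 2, and 12.13 on the array labelled wild type 3, which here lay with the ICD arrays. The brightest megalin probe set, 1452320_at, read between 12.77 and 12.93 on all arrays and did not part them. Whether either probe set lies within the introduced sequence was not given in the sources used here, so values without that array are given for several members. Its removal moved 51 of the 82 differences by over 1.5 times or turned their sign. That count was not made for the other arrays, and 66 of the 82 differences were under 0.05 in size. It therefore does not set this array apart. The removal also moved the difference of 1427133_s_at from -0.41 to -0.70. The array was singled out by its value at this probe set, so the loss of overlap there was fixed in advance and is no test. Tubule markers marked the tissue as kidney: the proximal phosphate transporter Slc34a1 read 13.92 to 14.22 and the thick limb protein Umod 14.32 to 14.43. Podocyte markers were higher in ICD kidneys for 7 of 7 genes (median difference 0.40), of which none passed an adjusted test. At an unadjusted limma p under 0.05 there were 6 (Nphs1, Podxl, Synpo, Wt1, Ptpro and Cdkn1c), beside 1.74% of all genes higher, and the groups did not overlap for 6, beside 3.66%. Their score, the list's mean of each gene's deviation from its 6-array mean, was 0.10 to 0.24 on ICD and -0.28 to -0.038 on wild type arrays. The part of podocytes in the members' values was not tested.

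None of the 82 members passed limma's test of the genotypes. At an adjusted p under 0.05, 0 members passed, beside 0% of the 45037 probe sets. The lowest adjusted p of a member was 0.946. At an unadjusted p under 0.05 there were also 0 members, where 3.94% of all genes passed, and the lowest unadjusted limma p of a member was 0.205, for Uqcrc2. Of the 82 members 52 were higher and 30 lower in ICD kidneys at any size, with a median difference of 0.011, against 43.9% of all genes higher and a median of -0.012. The groups did not overlap for 4 members, 2 higher and 2 lower, while 9.1% of all genes showed no overlap (3.66% higher and 5.44% lower). Most members are bright, and bright genes differ from all genes in these shares. Of the 647 genes with a mean of 12 or more, 51.2% were higher, with a median of 0.0027. Among those 647, 6 had an unadjusted limma p under 0.05 and 31 showed no overlap, 23 higher and 8 lower. Of the 67 members that bright, 67.2% were higher (median 0.014), and 4 showed no overlap.

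The measurement bounded the differences closely for most members. The 95% interval lay inside a 1.2-fold change in either direction (0.26 on the log2 scale) for 73 of 82 members, or 89%. Over all genes the share was 54%, and over the 647 genes with a mean of 12 or more it was 79.4%. Of the 67 members at that brightness, 66 had such an interval, and Ndufc2 was the exception. The 9 members with wider intervals were Ndufc2, Ndufa4l2, Ndufs5, Cox7c, Cox6b2, Cox8b, Cox6a2, Cox7b2 and Cox7a1. Members with a difference of less than 0.05 numbered 66 (80.5%), against 44.6% of all genes and 70.5% of the bright ones.

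**Figure D1:**
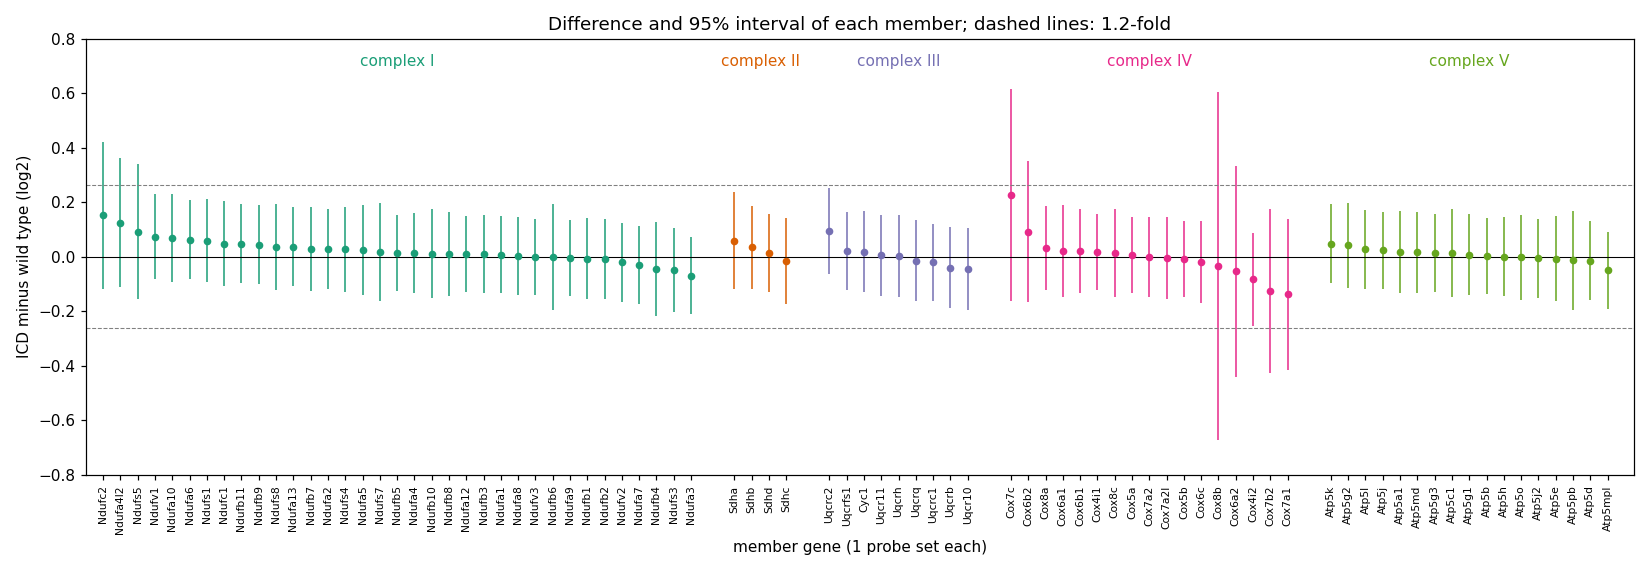
Difference between ICD and wild type kidneys (log2, vertical axis) for each of the 82 members (horizontal axis), by complex, with the 95% interval from limma as bars. All intervals include 0, and 73 stay within the dashed lines at 1.2-fold.

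Complex I, the NADH dehydrogenase, had 25 of 35 members higher and 10 lower, with a median of 0.015 and a range of -0.069 to 0.15. No member passed at an unadjusted p under 0.05. Ndufv1, the subunit that binds NADH and flavin, read 12.90, 12.85 and 12.76 in ICD kidneys and 12.80, 12.71 and 12.77 in wild type kidneys. The difference was 0.074 ± 0.069 (SE). Ndufs1, the largest subunit of the electron input arm, read 12.19, 12.20 and 12.10 in ICD and 12.13, 12.12 and 12.06 in wild type kidneys, with ICD minus wild type at 0.059 ± 0.067. Ndufs3, a core subunit of the peripheral arm, read 12.36, 12.33 and 12.33 against 12.42, 12.43 and 12.31, a difference of -0.049 ± 0.067, or -0.087 without the array labelled wild type 3. In these 3 core subunits the groups overlapped.

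A pair of complex I members had no overlap between the groups. The accessory subunit Ndufa6, named after its values were seen, read 12.384, 12.435 and 12.359 in ICD and 12.318, 12.358 and 12.314 in wild type kidneys, so that the lowest ICD and the highest wild type value nearly touched. Ndufa3, an accessory subunit of the membrane arm, lay the other way, at 13.517, 13.487 and 13.512 in ICD and 13.600, 13.555 and 13.566 in wild type kidneys. The differences were 0.062 (interval -0.082 to 0.21) and -0.069 (interval -0.21 to 0.072), with limma adjusted p of 0.97 and 0.96. Ndufa4, long listed with complex I and now counted as a subunit of complex IV, is grouped by its symbol here and differed by 0.014 (interval -0.13 to 0.16). Its relative Ndufa4l2, which is induced by hypoxia and is no subunit of complex I, read 7.41, 7.32 and 7.54 in ICD and 7.47, 7.11 and 7.31 in wild type kidneys, with a difference of 0.13 (interval -0.11 to 0.36) that came to 0.034 when wild type 2 was left out and to 0.067 when ICD 3 was. Ndufb4 and Ndufb1, also named after their values were seen, had dim probe sets with means of 5.201 and 7.93, which limits their differences of -0.046 and -0.0071.

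Ndufc2, an accessory subunit of the membrane arm, had the largest difference in complex I and split the wild type animals. Its brightest probe set read 13.17, 13.11 and 13.36 in ICD kidneys and 12.89, 12.99 and 13.30 in wild type kidneys. Wild type 1 and 2 were low, and the array labelled wild type 3 lay with the ICD arrays. ICD kidneys were higher by 0.15 (interval -0.12 to 0.42, limma adjusted p = 0.95). Both other bright probe sets of the gene, 1416366_at and 1460506_s_at, named after their values were seen, put the arrays in the same 2 sets. Probe set 1460506_s_at read 12.08, 12.05 and 12.30 in ICD kidneys, 11.66 and 11.65 on wild type 1 and 2, and 12.17 on the array labelled wild type 3 (ICD minus wild type 0.32, interval -0.012 to 0.65). For 1416366_at it was 0.27 (interval -0.053 to 0.59). The dim probe set 1431670_at did not part the arrays this way (-0.11, interval -0.35 to 0.14). Without the array labelled wild type 3 the differences of the bright probe sets were 0.27, 0.44 and 0.49, with adjusted limma p of 0.885, 0.573 and 0.546, so no probe set passed. These probe sets had put that array with the ICD arrays, so larger differences without it were fixed in advance and are no test. At the brightest probe set, leaving out wild type 1 gave 0.069 and leaving out ICD 3 gave 0.078. The megalin probe set 1427133_s_at split the arrays into these same sets in the opposite direction. Whether the splits are linked was not tested.

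**Figure D2:**
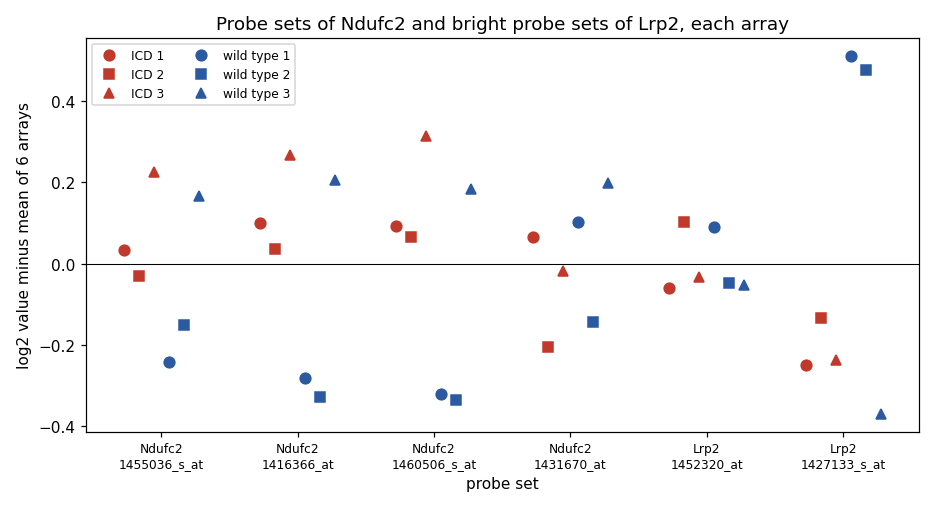
Deviation of the log2 value from the 6-array mean (vertical axis) for the 4 probe sets of Ndufc2 and the 2 bright probe sets of Lrp2, which encodes megalin (horizontal axis); red marks are ICD and blue marks wild type arrays. At 3 Ndufc2 probe sets wild type 1 and 2 lie below the other 4 arrays, and at Lrp2 1427133_s_at they lie above them.

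Complex II, succinate dehydrogenase, is the only complex without mitochondrially encoded subunits, and it also works in the citric acid cycle. Sdha, the flavoprotein that oxidizes succinate, read 12.87, 12.93 and 12.76 in ICD and 12.82, 12.86 and 12.70 in wild type kidneys (difference 0.059 ± 0.078 SE), which came to 0.012 without the array labelled wild type 3 and to 0.11 without ICD 3. Sdhb, the iron-sulfur subunit, differed by 0.035 ± 0.066, and the membrane anchors Sdhc and Sdhd by -0.015 ± 0.069 and 0.014 ± 0.063. In all 4 the groups overlapped. A dim further probe set of Sdha, 1433293_at, named after its values were seen, read 7.61, 7.42 and 7.36 in ICD and 7.26, 7.22 and 6.77 in wild type kidneys. These groups did not overlap, and the difference was 0.38 (interval 0.073 to 0.69, limma unadjusted p = 0.0213, adjusted p = 0.767), or 0.23 without the array labelled wild type 3. The other bright Sdha probe set, 1426689_s_at, differed by 0.056 and the remaining dim one by -0.021, so the Sdha probe sets did not give 1 answer.

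Complex III, cytochrome bc1, had 5 of 9 members higher and 4 lower, with a median of 0.0027. Uqcrc2, a core protein of the matrix side, had the highest difference and read 13.11, 13.01 and 13.02 in ICD and 12.93, 13.02 and 12.92 in wild type kidneys. Wild type 2 lay among the ICD values, and the difference was 0.094 (interval -0.063 to 0.25, limma adjusted p = 0.946). It was 0.061 without ICD 1. The Rieske iron-sulfur protein Uqcrfs1 differed by 0.022 ± 0.062 (SE) and cytochrome c1, Cyc1, by 0.019 ± 0.065. Cyc1 varied little among wild type kidneys, at 13.42, 13.43 and 13.43, while ICD kidneys read 13.51, 13.45 and 13.39, on both sides of them. The small subunits Uqcrb and Uqcr10 were lowest, at -0.040 (interval -0.19 to 0.11) and -0.044 (interval -0.19 to 0.11).

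In complex IV, cytochrome c oxidase, 8 of 17 members were higher and 9 lower, with a median of -0.00028 and the widest range of the 5 complexes, from -0.14 to 0.23. The 8 members with a mean of 12 or more lay between -0.020 and 0.032. Cox4i1, the main isoform of subunit 4, read 14.09, 14.08 and 14.07 in ICD and 14.06, 14.08 and 14.05 in wild type kidneys (difference 0.019 ± 0.061 SE). Cox8a differed by 0.032, Cox6a1 by 0.022, Cox6b1 by 0.021 and Cox7a2 by -0.00028, each with an interval inside 1.2-fold. Cox7a2l, which joins complexes III and IV into supercomplexes, differed by -0.0031 (interval -0.15 to 0.15). The high value of the range came from Cox7c, whose brighter single-gene probe set was itself dim and read 6.84, 6.95 and 7.17 in ICD and 6.90, 7.03 and 6.35 in wild type kidneys. Only the array labelled wild type 3 was low: ICD kidneys were higher by 0.23 (interval -0.16 to 0.62), which came to 0.025 when that array was left out, to 0.13 when ICD 3 was and to 0.36 when wild type 2 was.

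Cox8b, Cox7a1 and Cox6a2, tissue-restricted isoforms of complex IV with dimmer probe sets, ranged more widely over the 6 animals than their widely expressed partners, with overlapping genotypes. Cox8b, the isoform of heart, muscle and brown fat, read 8.49, 8.51 and 7.98 in ICD and 7.70, 8.91 and 8.47 in wild type kidneys, a range of 1.21, where Cox8a ranged over 0.13. Wild type 2 was highest and wild type 1 and ICD 3 were lowest, and the difference was -0.032 (interval -0.67 to 0.61), turning to 0.24 without wild type 2, to 0.14 without ICD 3, to 0.022 without the array labelled wild type 3 and to -0.36 without wild type 1. Cox7a1, of heart, muscle and brown fat, read 8.998, 8.97 and 8.68 in ICD and 8.89, 9.24 and 8.92 in wild type kidneys, so wild type 2 was again highest and ICD 3 lowest. Its difference of -0.14 (interval -0.41 to 0.14) shrank to -0.025 when wild type 2 was left out and to -0.036 when ICD 3 was. The range was 0.56, against 0.092 for Cox7a2.

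Of 6 measured adipose markers 5 had the same pair of arrays lowest as Cox8b. The exception was Lep, the fat hormone leptin, a dim probe set that read highest on ICD 3. Ucp1, the uncoupling protein that defines brown fat, read 8.82, 9.12 and 8.28 in ICD and 8.33, 9.86 and 9.10 in wild type kidneys: wild type 2 was highest, and ICD 3 and wild type 1 were lowest. The list held 8 adipose markers, and the score of those measured ran from -0.20 to 0.29 in ICD and from -0.54 to 0.14 in wild type kidneys, lowest on wild type 1 and ICD 3 as for Cox8b. Their summed linear value lay between 5649 and 8598 in ICD and between 4322 and 6923 in wild type arrays, and no marker was at 0, which RMA values do not reach. Adipoq, the fat hormone adiponectin, was lowest on wild type 1 (9.36) and ICD 3 (9.87) and read 10.07 to 10.61 on the others. The part of adipose tissue in the Cox8b and Cox7a1 values was not tested.

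Cox6a2, the heart and muscle isoform of subunit 6a, did not follow the fat genes. It read 8.28, 7.63 and 7.80 in ICD and 8.15, 7.99 and 7.74 in wild type kidneys, with ICD 1 and wild type 1 highest and a difference of -0.053 (interval -0.44 to 0.33), which was -0.24 without ICD 1, 0.084 without ICD 2 and -0.16 when the array labelled wild type 3 was left out. Cox6b2, a testis isoform, read 7.71 on ICD 1 and 7.28 to 7.51 on the others, and its difference of 0.092 came to -0.022 when ICD 1 was left out and to 0.038 when the array labelled wild type 3 was. Cox4i2, the lung isoform of subunit 4, differed by -0.083 (interval -0.25 to 0.088), and Cox8c by 0.014 (interval -0.15 to 0.18). Cox7b2, another testis isoform, read 3.74 to 4.30, near the lower end of the arrays, and its difference of -0.13 (interval -0.42 to 0.17) came to 0.013 with the array labelled wild type 3 left out and to -0.27 with wild type 2 left out. In bulk kidney RNA, fewer cells of a type and less RNA per cell cannot be told apart.

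**Figure D3:**
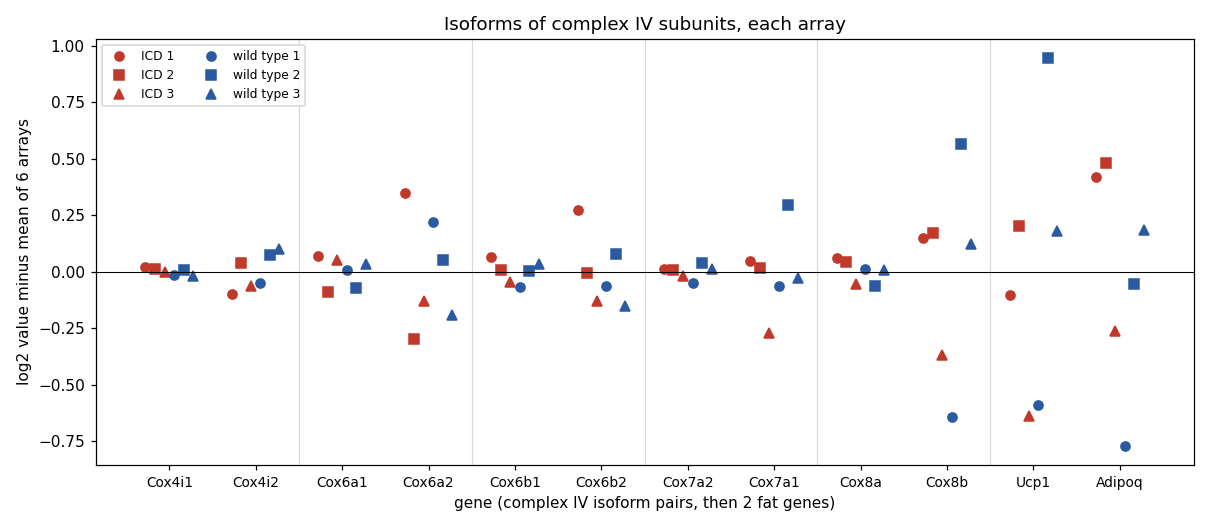
Deviation of the log2 value from the 6-array mean (vertical axis) for isoform pairs of complex IV subunits and the fat genes Ucp1 and Adipoq (horizontal axis); red marks are ICD and blue marks wild type arrays. Cox8b spans 1.21 and Ucp1 1.58 from lowest to highest array, with wild type 2 on top of both, while Cox4i1 spans 0.039.

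Complex V, the ATP synthase, had 11 of 17 members higher and 6 lower, with a median of 0.0072 and a range of -0.049 to 0.049. Atp5b, the catalytic beta subunit, read 14.44, 14.41 and 14.43 in ICD and 14.42, 14.41 and 14.44 in wild type kidneys, with ICD minus wild type at 0.0027 ± 0.061 (SE). The genes Atp5g1, Atp5g2 and Atp5g3, which all encode the same mature c subunit of the rotor ring, differed by 0.0072, 0.043 and 0.015, with intervals of -0.14 to 0.16, -0.11 to 0.20 and -0.13 to 0.16. Atp5d of the central stalk differed by -0.014. A pair of members had no overlap. Atp5k, subunit e, which helps to join synthases into dimers, read 13.157, 13.098 and 13.101 in ICD and 13.091, 13.027 and 13.092 in wild type kidneys (difference 0.049 ± 0.064). Atp5mpl, a small proteolipid of the membrane part, read 12.514, 12.502 and 12.508 in ICD and 12.524, 12.568 and 12.579 in wild type kidneys (difference -0.049 ± 0.062). Limma adjusted p were 0.981 and 0.979.

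Further probe sets gave a check on the choice of 1 probe set for each gene. For 48 members there were 83 of them, of which 2 had an unadjusted limma p under 0.05, beside 5.86% of all probe sets. These were Sdha 1433293_at and a dim probe set of Cox6a2, 1457633_x_at (difference 0.27, adjusted p = 0.851). The 54 with a mean of 10 or more differed by -0.13 to 0.32, and by no more than 0.064 on the high side without Ndufc2. The 29 dimmer ones differed by -0.15 to 0.38. In 30 of the 83 the sign was opposite to that of the member's main probe set. The 9 probe sets that the annotation gives a subunit symbol and a further symbol, left out by the rule, differed by -0.039 to 0.069. They include those of Ndufa11 and Ndufs6, which are not members because they had no probe set with 1 gene. The mitochondrially encoded subunit ND5 of complex I had a probe set that read 14.63, 14.61 and 14.66 in ICD and 14.59, 14.75 and 14.58 in wild type kidneys, and ICD minus wild type was -0.0064 (interval -0.17 to 0.16).

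Animals of 1 genotype differed little in these genes. The median SD within groups was 0.043 over the members and 0.040 over the 67 bright ones, against 0.098 over all genes and 0.064 over the genes of that brightness. The largest SD within groups, 0.48, belonged to Cox8b, and Cox4i1 (0.013) had the smallest. Because limma draws the SD of each gene towards that of all genes, no SE fell under 0.061, and the intervals of the steadiest members are wider than their own spread.

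**Figure D4:**
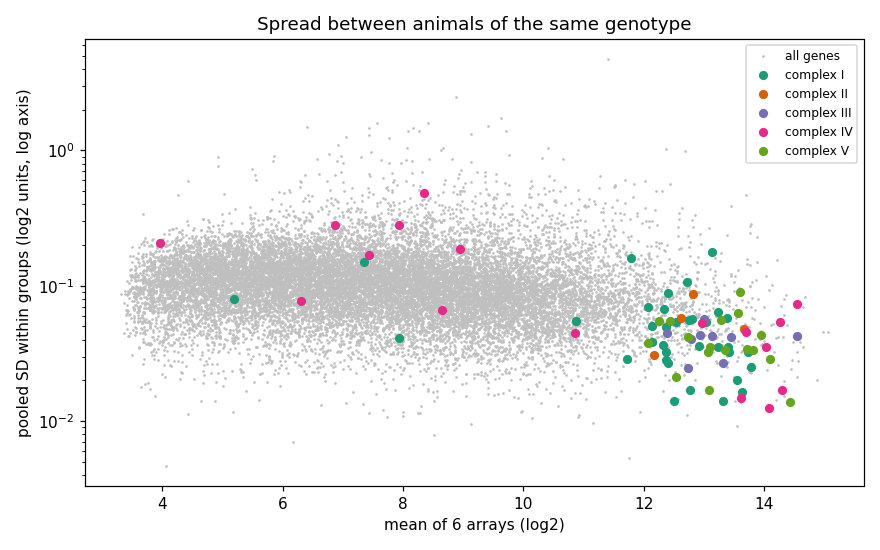
Pooled SD within the genotype groups (log axis, log2 units) against the mean of the 6 arrays (log2) for all genes in grey and the 82 members in colour by complex. The 67 members above a mean of 12 have a median SD of 0.040, and the members with the largest SD are dim isoforms of complex IV.

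ICD 1 held the highest value for 32 of the 82 members (39%) and the lowest for 3 (3.66%), while over the bright genes it was highest for 13.8% and lowest for 17%. Scores of ICD 1 were 0.026, 0.027, 0.031, 0.054 and 0.029 for complexes I to V, and it was the highest array for complexes I, III, IV and V. The other ICD arrays read -0.050 to 0.030 and the wild type arrays -0.049 to 0.045 over the complexes. Without ICD 1 the median difference over all members was -0.0030, and without ICD 3 it was 0.021.

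The array labelled wild type 3 had the lowest score for proximal tubule markers. Of 15 markers of the segment 14 were measured, 8 higher and 6 lower, and that array scored -0.53 where the other 5 scored 0.043 to 0.20. Most of that came from 3 markers: against their 6-array means Slc5a12, a lactate transporter, was at -4.77, the glucose transporter Slc5a2 at -1.12 and the organic anion transporter Slc22a8 at -0.95. Of the others 9 lay within 0.08 of their means on that array, 4 of them above. The markers' summed linear value was 156810 on that array, 164343 and 172805 on the other wild type arrays and 166718 to 170104 on ICD arrays. Slc5a12 read 4.12 there and 8.89 on average over the 6 arrays. The scores of that array for complexes I, III, IV and V lay between -0.012 and 0.00032, and that for complex II was -0.049, the lowest of the 6. Without that array the members' result was the same count of 0 past adjusted p 0.05.

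**Figure D5:**
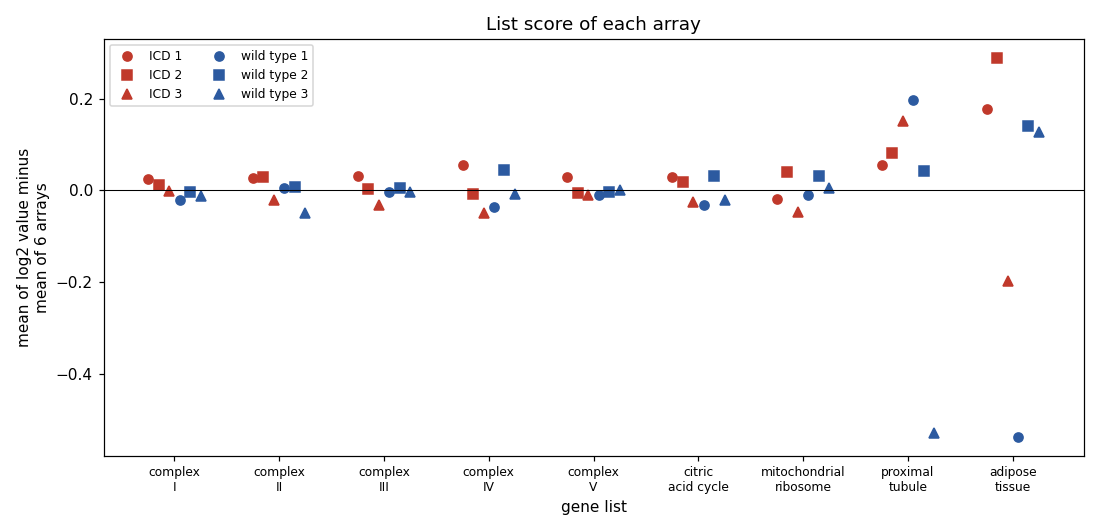
Score of each array (vertical axis, a list's mean deviation from each gene's 6-array mean, log2) for complexes I to V and further lists (horizontal axis); red marks are ICD and blue marks wild type arrays. Scores of the complexes lie between -0.050 and 0.054, while wild type 3 is at -0.53 for proximal tubule markers and wild type 1 at -0.54 for adipose markers.

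Genes that build or feed the chain were counted in the same way. Of 46 assembly factors 44 were measured, 14 higher and 30 lower (median -0.025), from Timmdc1, a complex I assembly factor (-0.30, interval -0.82 to 0.22), to Coa4, of complex IV (0.11, interval -0.033 to 0.26). Of the citric acid cycle genes 12 were higher and 5 lower (median 0.015), from Idh3a, a subunit of isocitrate dehydrogenase (-0.055), to Pcx, pyruvate carboxylase (0.091). Electron carriers and donors were higher for 4 of 11 (median -0.021), from Dhodh, of pyrimidine synthesis (-0.13), to Etfdh, which passes electrons from fat oxidation (0.060). Carriers that exchange ADP, ATP and phosphate, and the enzymes listed with them, were higher for 5 of 11 (median -0.0097), from Ckmt2, a mitochondrial creatine kinase (-0.084), to Slc25a25, a calcium-dependent ATP carrier (0.15). Mitochondrial ribosomal proteins were higher for 28 of 76 (median -0.019), from Mrps27 (-0.14) to Mrps5 (0.091). None of these genes passed at an unadjusted p under 0.05.

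Regulators of mitochondrial gene expression were the exception at the unadjusted level. Of 18 genes 10 were higher and 8 lower, with 2 higher and 1 lower at an unadjusted limma p under 0.05, where 1.74% of all genes were higher and 2.2% lower by that rule. The groups did not overlap for 5 of the 18, 3 higher and 2 lower, beside 3.66% and 5.44% of all genes. Ppargc1a, the coactivator that drives mitochondrial biogenesis, read 10.80, 11.08 and 10.82 in ICD and 10.78, 10.40 and 10.28 in wild type kidneys (difference 0.41 ± 0.14 SE, limma adjusted p = 0.738). All ICD values lay above all wild type values, but the closest, 10.80 and 10.78, nearly touched. The factor Nrf1, which binds promoters of respiratory chain genes, read 7.40, 7.38 and 7.30 in ICD and 7.20, 7.06 and 7.20 in wild type kidneys (difference 0.21 ± 0.072, adjusted p = 0.756), and these groups did not overlap either. Gabpb1, a subunit of the Ets factor GABP, read 7.53, 7.71 and 7.54 against 7.75, 7.83 and 7.78 without overlap (difference -0.19 ± 0.075, adjusted p = 0.817). Its DNA-binding partner Gabpa differed by -0.0027, Tfam, the mitochondrial DNA packaging and transcription factor, by 0.052, and Esrra, a nuclear receptor that works with the coactivator, by -0.043. Gabpa, Tfam and Esrra lay outside the naming rule and were named after their values were seen. None of the 18 passed an adjusted test.

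The members' promoters were searched for the letters that Nrf1, GABP and Esrra are known to bind, and a few are printed so that these can be seen beside the values of the factors. Sequences are the 250 bases before the RefSeq transcript start (GRCm38.p6), written 5′ to 3′ on the strand of the gene. Windows were found for 66 of the 82 members, 71 windows in all. Capitals mark a match, on either strand, to GCGCA, any base and GCGC in a row for NRF1, CCGGAAG for GABPA or TCAAGGTCA for ESRRA. No matches to different motifs overlapped in the printed windows. Cox6a1 and Sdhd were chosen from the members with both an NRF1 and a GABPA match, which also include Atp5h, not printed. Atp5k was chosen because its groups did not overlap at its brightest probe set, and Ndufc2 because it split the arrays. The other members without overlap, Ndufa3, Ndufa6 and Atp5mpl, are not printed and were not among the members with a match to these motifs.
Cox6a1, chr5:115348959-115349208, minus strand: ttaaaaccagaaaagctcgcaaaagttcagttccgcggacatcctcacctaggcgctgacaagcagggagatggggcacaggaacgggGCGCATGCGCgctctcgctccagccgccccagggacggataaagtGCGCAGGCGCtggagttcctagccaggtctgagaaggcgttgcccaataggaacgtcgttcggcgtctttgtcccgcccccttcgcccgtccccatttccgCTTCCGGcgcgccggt
Sdhd, chr9:50603850-50604099, minus strand: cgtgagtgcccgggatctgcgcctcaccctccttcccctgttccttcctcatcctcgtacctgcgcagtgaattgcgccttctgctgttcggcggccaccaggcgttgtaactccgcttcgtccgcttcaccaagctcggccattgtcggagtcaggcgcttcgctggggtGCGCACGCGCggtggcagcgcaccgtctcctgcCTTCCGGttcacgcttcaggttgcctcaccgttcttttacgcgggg
Atp5k, chr5:108434400-108434649, minus strand: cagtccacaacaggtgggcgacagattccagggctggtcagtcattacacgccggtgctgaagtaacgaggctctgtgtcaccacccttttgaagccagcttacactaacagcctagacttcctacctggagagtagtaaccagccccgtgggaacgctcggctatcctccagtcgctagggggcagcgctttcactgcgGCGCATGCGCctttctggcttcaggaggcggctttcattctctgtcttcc
Ndufc2, chr7:97399753-97400002, plus strand: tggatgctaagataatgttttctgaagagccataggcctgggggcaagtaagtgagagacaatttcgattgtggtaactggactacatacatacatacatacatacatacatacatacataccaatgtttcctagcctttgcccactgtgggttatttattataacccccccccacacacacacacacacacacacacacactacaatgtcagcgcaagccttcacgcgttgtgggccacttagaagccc
Of these windows that of Cox6a1 holds 2 NRF1 matches, which begin at positions -162 and -117 counted from the transcript start, and a GABPA match at -16. The window of Ndufc2 holds none of the 3 motifs.

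Over all members, 12 of 71 windows (16.9%) held an NRF1 match, against 3.74% of all 32851 windows of this length and 6.02% of those of genes on the array. A GABPA match was found in 16.9% of members' windows, against 6.91% and 10.1%. The ESRRA letters occurred in 1 window, that of Atp5g3, and the Sp1 letters GGGCGG in 35.2%, against 32.7% and 48.3%. The letters TATAAA occurred in 11.3%, against 12.4% and 8.81%. The median count of CpG pairs was 14 in members' windows, 6 in all windows and 12 in those of genes on the array. The 11 members with an NRF1 match (Atp5c1, Atp5g2, Atp5h, Atp5k, Cox6a1, Ndufa5, Ndufa8, Ndufb4, Ndufs5, Sdha and Sdhd) had a median difference of 0.022, and the other members with a window had one of 0.0083. The 12 members with a GABPA match had a median of 0.0093 and the others one of 0.0098. Whether these medians differ was not tested, and the median over all members ran from -0.0030 to 0.021 with 1 array left out. A match is a description of the letters and not a measured site.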

How the data were processed

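The deposited table holds 1 log2 value per probe set and array. The authors made it with RMA, per the submitters' processing notes. RMA makes all arrays share 1 distribution, so a shift of most transcripts would be removed, and it compresses differences of dim and of very bright probe sets. The sources used here do not give its version or the chip definition.

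Of 45101 rows 64 controls were left out. The platform annotation gave 1 gene for 34945 probe sets, several for 932 and none for 9160. All 82 members were found in RefSeq by Entrez identifier. ICD and wild type arrays (groups from the labels, 3 animals each) entered 1 linear model with moderated 2-sided tests (limma 3.58.1, R 4.3.3), with Benjamini-Hochberg adjustment over 45037 probe sets. The fit was tested on simulated data. Lists are described by counts and medians, without a test. An exact permutation test of 3 against 3 cannot go below 0.1, so none was used.

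Named genes followed a rule: the Sdh genes, the highest and lowest members of each complex, catalytic subunits, isoform sets, Ndufa4 and Ndufa4l2, the extremes of each pathway list and genes with an unadjusted p under 0.05. Others are marked as named after their values were seen. The cell type lists covered proximal tubule, thick ascending limb, distal convoluted tubule, principal and intercalated cells, podocytes, endothelium, leukocytes, blood and adipose tissue. The members and lists were chosen with earlier results of these data known. Alternatives left out each array, changed the prior, weights, normalization, brightness filter or probe set, or added a replicate block.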

Additional observations from a re-analysis of the deposited data

How the results depend on the processing

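No member passed an adjusted p under 0.05 in any of the 14 alternative fits, with lowest adjusted p of a member between 0.723 and 0.999. The count at an unadjusted p under 0.05 was 0, but 0 to 1 with 1 array left out: Cox7b2 without wild type 2 and Ndufc2 without the array labelled wild type 3. The count of members without overlap was 4, and 7 to 20 with 1 array left out, where 3 against 2 arrays part more easily. The median of complex III ranged from -0.017 to 0.031 with 1 array left out and moved past its spread between replicates (SD 0.025) without ICD 3. The other medians stayed within theirs. With 1 array left out 45 of the 82 differences changed sign in at least 1 case, among them those of Ndufb4 (0.014 without ICD 1) and Ndufb1 (0.021 without wild type 2). For 38 genes single differences were followed with each array left out, another prior, repeated quantile normalization and a replicate block. Under the other alternatives only counts and medians were followed. Of the 38 genes, these changed sign with 1 array left out: Atp5b from -0.0054 to 0.011, Atp5d from -0.035 to 0.00037, Atp5g1 from -0.024 to 0.032, Cox6a1 from -0.0097 to 0.072, Cox6a2 from -0.24 to 0.084, Cox6b1 from -0.0075 to 0.049, Cox6b2 from -0.022 to 0.18, Cox7a2 from -0.026 to 0.020, Cox7a2l from -0.025 to 0.026, Cox7b2 from -0.27 to 0.013, Cox8b from -0.36 to 0.24, Cox8c from -0.028 to 0.043, Cyc1 from -0.011 to 0.048, Ndufa4 from -0.013 to 0.031 and Sdhc from -0.043 to 0.021. After repeated quantile normalization Sdhd was at -0.0010 and Cox7a2 at 0.0041, of opposite sign to the main values. The cause was not tested. With the replicate number as a block 0 members passed, with a lowest adjusted p of 0.864. Deviations of same-numbered arrays correlated at -0.0057, 0.0077 and -0.047, which shows no pairing by number but cannot exclude a weak one. The labels give no pairing. Signal limits the dim members: those with a mean under 10 had a median interval of 0.26 to either side, against 0.15 for those of 12 or more.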

Other observations

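The cell type lists that no result above turned on gave these counts. Thick ascending limb markers were higher for 2 of 9 (median -0.037), distal convoluted tubule markers for 3 of 6 (median -0.0035), principal cell markers for 2 of 11 (median -0.051) and intercalated cell markers for 4 of 7 (median 0.018). Endothelial markers were higher for 10 of 10 (median 0.10), leukocyte markers for 6 of 9 (median 0.065) and blood markers for 1 of 3 (median -0.20). The groups overlapped for every endothelial marker. The endothelial score was highest on wild type 1 (0.27), lowest on the array labelled wild type 3 (-0.36) and -0.038 to 0.19 on ICD arrays. Adipose markers were higher for 5 of 6 (median 0.29). None of these markers passed limma's adjusted test. At an unadjusted limma p under 0.05 there were 5, all lower in ICD kidneys and without overlap. Over all genes 2.2% were lower by that p and 5.44% were lower without overlap. The markers were 3 of 11 of principal cells, Avpr2 (-0.23), Scnn1a (-0.21) and Elf5 (-0.28), 1 of 9 of the thick limb, Ptger3 (-0.35), and 1 of 3 of blood, Alas2 (-0.39).

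The brown fat gene Ucp1 and the isoform Cox8b put the same array highest, wild type 2, and had the same pair, ICD 3 and wild type 1, lowest. Ucp1 differed by -0.36 (interval -1.17 to 0.46) between the genotypes. The adipose markers Adipoq, Retn, Car3 and Cidec were lowest on wild type 1 and ICD 3 as well. Of these Adipoq and Car3 were highest on ICD 2, Retn on ICD 1 and Cidec on wild type 3. Lep was highest on ICD 3 and lowest on wild type 1 and 3.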
